A study of Mus musculus with 4 samples.

Results

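The replication-dependent core histone genes encode the H2A, H2B, H3 and H4 proteins around which DNA is wrapped. They were taken from the deposited gene table by symbol: every Hist1, Hist2, Hist3 or Hist4 row for an H2A, H2B, H3 or H4 gene, without pseudogenes. The rule found 61 of 41324 genes, of which 18 encode H2A, 18 H2B, 12 H3 and 13 H4. RNA came from RAW264.7, a mouse macrophage-like cell line, and is labelled as cytoplasmic. One library was untreated, and 1 library each was made after 2, 4 and 6 h in 10 µg/ml actinomycin D, which blocks transcription, so that the loss of an RNA can be followed. All 4 libraries are of the same line with no other treatment, and the stated aim was to time the decay of every measured mRNA.

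Replication-dependent histone mRNAs differ from other animal mRNAs in that they usually carry no poly(A) tail and end in a short conserved stem-loop. The stem-loop binding protein, SLBP, holds this hairpin during 3′ end processing, export and translation. The mRNAs are made in S phase and are degraded quickly when DNA synthesis stops, a route that starts with uridine addition and the exonuclease encoded by Eri1. The genes lie in clusters, lack introns in most cases, and many H2A and H2B genes stand head to head. A few of them can also be read through the stem-loop to a downstream polyadenylation signal, which is known in differentiated and non-dividing cells. Ribosomal RNA depletion, used here, keeps transcripts with and without a poly(A) tail.

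In the GENCODE M21 annotation of mouse GRCm38 (mm10), 48 of the 61 genes lay on chromosome 13, 10 on chromosome 3, 2 on chromosome 11 and 1 on chromosome 6, and 56 had a single exon. The stem-loop, searched on the sense strand as the stem strands GGNNCU and AGNNCC, paired at all 6 positions, around a loop of 4 bases, UNUN, was read in 42 of the 61 genes. Over all 21877 protein-coding genes it was read in 55, or 0.251%. Among the 19 core histone genes without a match, 15 had gene models with under 100 non-coding bases, so the models may end before the site. The other 4 were Hist2h2be, Hist1h2bc, Hist1h2bq and Hist1h2br.

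The hairpin had 8 forms among the 42 genes. One example of each is shown so that its letters can be set beside the slope of its gene. Also shown are a second example of the form shared by the H4 genes Hist2h4 and Hist1h4i, and the variant gene H2afx. Each is the RNA of the annotated transcript, 5′ to 3′, with the stem-loop in capitals.
Hist1h2bg: ccaaaGGCUCUUUUCAGAGCCaccca
Hist1h3e: aaaacGGCUCUUUUAAGAGCCaccuc
Hist2h2ac: aaaaaGGCUCUUUUUAGAGCCaccaa
Hist1h3g: uuaaaGGCUCUUCUUAGAGCCaccca
Hist1h4d: ccaaaGGCCCUUUUCAGGGCCacuac
Hist2h4: cuaacGGCCCUUUUUAGGGCCaacca
Hist1h4i: uuaaaGGCCCUUUUUAGGGCCaccac
Hist1h4j: cuaaaGGUCCUUUUCAGGACCaccac
Hist1h4a: ccaaaGGCCCUUCUCAGGGCCgccca
H2afx: acaaaGGCCCUUUUAAGGGCCaccac
The form of Hist1h2bg was the most common, in 23 H2A, H2B and H3 genes, and that of Hist1h4d was read in 7 H4 genes. The form of Hist1h3e was read in 5 genes, those of Hist2h4 and Hist1h4j in 2 each, and the rest in 1 each.

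Reads were counted per gene, and many of these genes are near-identical copies. A gene's own sequence was gauged as the share of the 50-base stretches of its annotated transcripts that occur in no other gene. This share was under 20% for 16 of the 61 genes, and the sources used here do not say how reads that fit several genes were counted. Of the 9 genes with a count of 0 in all 4 libraries, 8 were among these 16: Hist1h2ao, Hist1h2ap, Hist2h2aa1, Hist2h2aa2, Hist1h2bq, Hist1h2br, Hist2h3c1 and Hist1h4m. A count of 0 in such a copy does not show that its mRNA was absent. The ninth was Hist1h2ba, a testis H2B with 61.8% unique stretches, and its testis H2A neighbour Hist1h2aa had 1 read in the untreated library and 0 elsewhere.

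**Figure D1:**
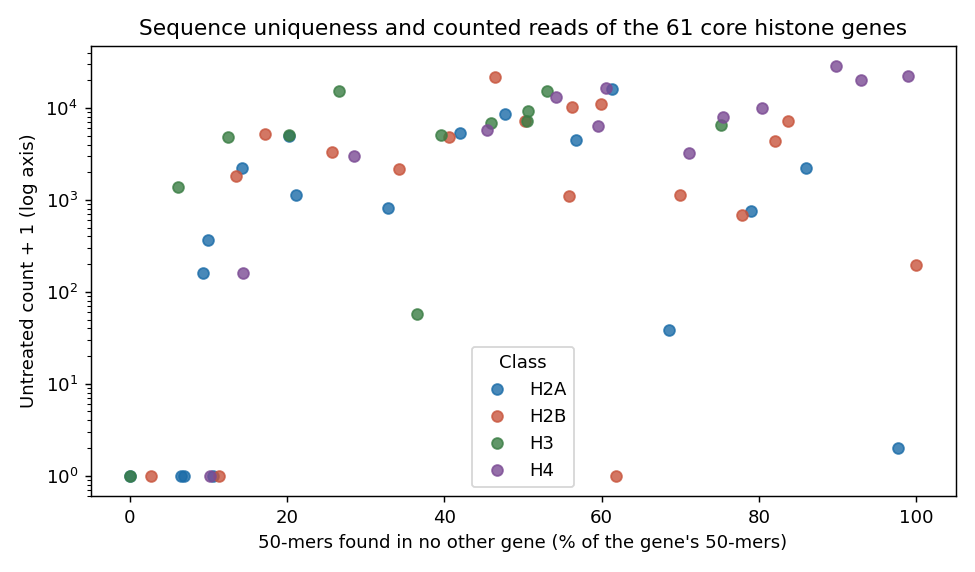
Untreated read count plus 1 (vertical, log axis) against the share of a gene's 50-base stretches found in no other gene (horizontal, %), for the 61 core histone genes, coloured by class. Of the 9 genes with no reads in any library, 8 sit at the left, under 20%, and Hist1h2ba lies at 61.8%.

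Levels are given in CPM, reads scaled to library size by TMM and not divided by gene length. A gene was tested when its mean over the 4 libraries reached 1 CPM, here taken on total counts before TMM. This was so for 49 of the 61: 12 H2A, 15 H2B, 10 H3 and 12 H4 genes. Of these, 47 also reached that mean over the 3 treated libraries, while Hist1h4n and Hist1h2ah did so only through the untreated one. Below the filter, Hist3h2a had 37, 21, 80 and 16 reads at 0, 2, 4 and 6 h. Its level stood at 39.9%, 86.7% and 108% (55.9 to 198, exact binomial interval) of untreated, so its course had no clear direction at this depth. Hist2h3c2 had 56, 1, 8 and 5 reads.

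The untreated library held 35669434 counts, and those at 2, 4 and 6 h held 38260540, 70289647 and 12762100. Counting error is thus largest at the last point, and without it 48 members still fell. The 7 macrophage markers examined, among them Csf1r and Lyz2, were all above the filter and summed to between 3813 and 5139 CPM. Of 9 fibroblast, T cell, B cell and epithelial markers, 7 were at 0 in every library, and all 9 together stayed at or below 0.211 CPM.

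Nearly all core histone mRNAs fell. With edgeR's quasi-likelihood test of a slope over time and Benjamini-Hochberg adjustment over 10837 genes, 48 of the 49 tested members fell and 0 rose, where 17.2% of all tested genes fell and 8.63% rose. The 1 member without a call was the H2B gene Hist2h2be. The 48 include Hist1h4n and Hist1h2ah, for which a fall was favoured by the filter, passed only through the untreated library. Each time has 1 library, so these p-values measure only the scatter of 4 libraries around a line, with 2 residual degrees of freedom, and no level has a replicate check. In bulk RNA, fewer cells of a type and less RNA per cell cannot be told apart.

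Members took 8 of the 10 steepest slopes among all 10837 tested genes, 39 of the steepest 50 and 47 of the steepest 100. The first 10 include Hist1h4n and Hist1h2ah, at ranks 2 and 9. They passed the filter only through the untreated library, so a steep fall was built into their being tested. The least steep of the 48 that fell, Hist1h4i, still ranked 143. The median slope was −0.84 log2 units per h in H2A, −0.84 in H2B, −0.85 in H3 and −0.79 in H4, beside 0.0014 over all tested genes. The 4 medians lay closer to one another than the slopes within any class did: the ranges were −1.02 to −0.51 in H2A, −1.08 to 0.10 in H2B, −1.33 to −0.74 in H3 and −1.19 to −0.45 in H4. The median level of the tested members at 2, 4 and 6 h was 17.2%, 5.88% and 3.19% of untreated.

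**Figure D2:**
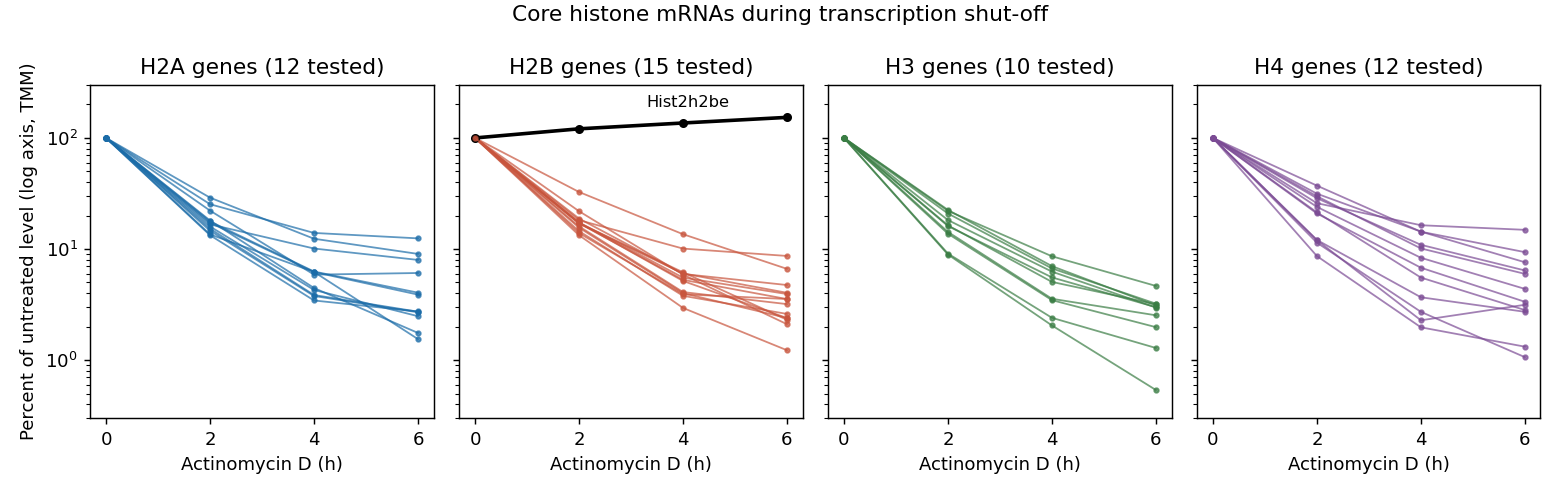
Level of each tested core histone mRNA as a percent of its untreated level (vertical, log axis, TMM scaling) against hours in actinomycin D (horizontal), 1 panel per class and 1 line per gene. Of the 49 lines, 48 go down, with a median of 3.19% at 6 h, and Hist2h2be (black, H2B panel) ends at 153%.

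Summed over all 61 genes, core histone reads made up 0.961%, 0.252%, 0.0863% and 0.0447% of the successive libraries. A sum over the family does not depend on how counted reads were divided among near-identical copies. It lacks any reads that were left uncounted because they fit several genes, and whether there were such reads is not known. After scaling, the summed level had gone to 19.8% of its start by 2 h (19.7 to 19.9, exact binomial 95% interval), to 7.09% by 4 h (7.03 to 7.15) and to 4.14% by 6 h (4.03 to 4.25). These intervals cover counting error only. The choice of library scaling moved them by more than that, to between 2.891% and 4.65% at 6 h.

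Among the H2A genes, Hist2h2ac at chr3:96220361-96220880 had the highest CPM, with 531, 94.1, 33.3 and 21.5 CPM at 0, 2, 4 and 6 h. It lost most of its level in the first 2 h and then less at each step. Its slope was −0.77 ± 0.096 (SE) log2 per h (adjusted p = 0.0195, edgeR). Next by CPM were Hist1h2ak (280 CPM untreated, 3.89% left at 6 h) and Hist1h2ab (174 CPM, 2.49% left).

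The steepest H2A slopes were those of Hist1h2ag (−1.02, adjusted p = 0.0145, edgeR) and Hist1h2ah (−1.003, adjusted p = 0.0145, edgeR). Hist1h2ah rests on 161, 31, 25 and 1 reads and on 9.27% unique stretches, so both its level and its identity are uncertain. The shallowest were Hist2h2ab and Hist1h2af. Hist2h2ab had 24.9, 6.31, 3.48 and 3.11 CPM and kept 12.5% at 6 h (8.76 to 17.3), with a slope of −0.51 ± 0.094 (adjusted p = 0.0323, edgeR). Hist1h2af kept 9.04% (7.75 to 10.5), with a slope of −0.58 (adjusted p = 0.0187, edgeR). The 6 h interval of Hist2h2ab lies above that of Hist2h2ac (3.57 to 4.57), its neighbour on chromosome 3, and these intervals hold counting error only. Each of these 7 H2A genes is overlapped by an annotated gene on the opposite strand, and the sources used here do not say whether counting used the strand. Over the family, 38 genes overlapped no other annotated gene, of which 33 were tested and 32 fell.

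Among the H2B genes, Hist2h2bb at chr3:96269752-96270132 had the highest CPM, with 721, 235, 98.1 and 47.8 CPM. It was also the highest core histone per length, at 1893 CPM per kb of its annotated transcript, but that model is only 381 bases long and holds little beyond the coding sequence. Its slope of −0.65 ± 0.033 (adjusted p = 0.0145, edgeR) was shallower than those of the next by CPM, Hist1h2bb (359 CPM untreated, slope −0.90) and Hist1h2bm (335 CPM, slope −0.84). At 6 h Hist2h2bb kept 6.63% (6.10 to 7.20), against 2.39% (1.96 to 2.90) for Hist1h2bb and 3.19% (2.67 to 3.79) for Hist1h2bm.

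Hist1h2bg had the steepest H2B slope, with 240, 31.9, 7.07 and 2.94 CPM and −1.08 ± 0.091 log2 per h (adjusted p = 0.0145, edgeR). It was followed by Hist1h2bk at −0.94 ± 0.043 (adjusted p = 0.0145, edgeR), with 21.9%, 5.89% and 2.11% left at 2, 4 and 6 h. Hist1h2bc was the shallowest H2B gene that fell. Its levels were 36.8, 6.70, 3.71 and 3.19 CPM, so it dropped early and changed little between 4 and 6 h (slope −0.60 ± 0.114, adjusted p = 0.0338, edgeR). The annotated Hist1h2bc transcript is spliced from 2 exons over chr13:23684199-23692908, is 1156 bases long and holds no stem-loop match.

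Hist2h2be, at chr3:96221119-96223738, stood apart. It had 195, 335, 663 and 120 reads, or 6.41, 7.74, 8.73 and 9.81 CPM at 0, 2, 4 and 6 h. Every treated library lay above the untreated one, at 121%, 136% and 153% of its level, with a counting interval of 121 to 193 at 6 h. The slope was 0.10 ± 0.029 log2 per h (adjusted p = 0.0655, edgeR), so no change was called. Its unadjusted p was under 0.05, as for all 49 members and for 5128 of all 10837 tested genes. Under the deposited divisors in place of TMM its slope was 0.014 (adjusted p = 0.710, edgeR), near level.

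The annotation of Hist2h2be differs from that of most members. Its transcript is 2620 bases long in a single exon, with 2242 non-coding bases, no stem-loop match and an AATAAA polyadenylation signal in its last 60 bases. All of its 50-base stretches were unique among annotated transcripts. Sharing of reads with other genes was not tested. Absence of a match says only that these letters are not in the annotated transcript. Its level was low, at 2.44 CPM per kb untreated against 1021 for Hist2h2ac beside it. Of the 61 members, 13 had an AATAAA in the last 60 bases. Hist2h4 and Hist4h4 were among these, with 1321 and 2554 non-coding bases and a stem-loop match, and both fell.

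Hist2h2be and Hist2h2ac are transcribed away from each other from starts separated by 238 bases. These bases, chr3:96220881-96221118 of GRCm38.p6, are shown because the 2 flanking genes had slopes of opposite sign, though that of Hist2h2be was not called. They come from the RefSeq promoter window of Hist2h2ac and are printed on the minus strand, 5′ to 3′, from the side of Hist2h2be to the side of Hist2h2ac. Capitals mark the TATA box motif TATAAA, the CAAT box motif CCAAT and, as its reverse complement, the octamer ATTTGCAT known from H2B promoters. Both strands were searched, and the matches do not overlap each other here.
Hist2h2ac to Hist2h2be interval: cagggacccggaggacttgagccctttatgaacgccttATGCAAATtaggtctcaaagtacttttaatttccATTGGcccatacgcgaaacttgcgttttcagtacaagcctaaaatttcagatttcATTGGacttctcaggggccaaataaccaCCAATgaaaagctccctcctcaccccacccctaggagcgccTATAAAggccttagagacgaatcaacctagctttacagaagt
The interval held 1 match to TATAAA, on the printed strand, and 1 to ATTTGCAT, on the other. CCAAT had 3 matches, 1 on the printed strand and 2 on the other. RefSeq windows of 250 bases before to 50 after the start were matched for 55 members. TATAAA was present in 31 of them against 13.6% of all 32851 windows, CCAAT in 46 against 37.4%, and ATTTGCAT in 14 against 1.74%. The windows of 9 head-to-head pairs overlap, so 1 match can count for 2 members. A member counted when any of its windows matched, while the background is per window.

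Both genes fell in each of the other head-to-head H2A and H2B pairs examined. RefSeq windows overlapped by 220 to 279 bases in 9 such pairs, and both genes were tested in 7 pairs. All 14 genes of the 7 pairs fell. The slopes within these 7 pairs differed by 0.04 to 0.19 log2 per h, with the H2B gene steeper in 4 pairs and the H2A gene in 3. Hist1h2ah and Hist1h2bk, for example, had slopes of −1.003 and −0.94, and Hist1h2ah passed the filter only through the untreated library. Hist1h2ac and Hist1h2bc, also head to head in the annotation, were not matched as a pair by these windows. Both fell, with slopes of −0.91 and −0.60, further apart than in any of the 7 pairs. Hist1h2ac is named only for this position. In the interval shown above, by contrast, the slopes were −0.77 for Hist2h2ac and 0.10 for Hist2h2be, and the difference between them was not tested.

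Among the H3 genes, Hist1h3c had the highest untreated CPM and the shallowest slope of its class. It had 502, 111, 43.2 and 23.4 CPM and fell by 0.74 log2 units per h (adjusted p = 0.0151, edgeR). Hist1h3e began at 499 CPM and kept less at 6 h, 2.996% (2.58 to 3.47) against 4.65% (4.13 to 5.23) for Hist1h3c. Hist1h3f began at 301 CPM and kept 1.98% (slope −0.96). Hist1h3d, the next shallowest, kept 3.22% (slope −0.83).

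Hist1h3g was among the fastest of all, with 222, 20.2, 5.35 and 2.86 CPM and a slope of −1.07 ± 0.136 (adjusted p = 0.0199, edgeR). It was down to 9.10% by 2 h, below any H2A or H2B gene at that time. Its stem-loop, shown above, is the only one among the members with the loop UCUU. Hist1h3h, with a slope of −1.33, had only 6.08% unique stretches and 3 reads at 6 h, so its value is uncertain.

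The H4 slopes ran from −1.19 to −0.45. Hist1h4d at chr13:23581598-23582735 had the highest CPM of all core histones, with 929, 293, 133 and 70.6 CPM and a slope of −0.62 ± 0.042 (adjusted p = 0.0145, edgeR). Hist2h4 at chr3:96261682-96263311 began at the next CPM of its class and was lower at every later time, with 730, 63.0, 14.4 and 9.65 CPM. Its reads were 22216, 2729, 1094 and 118, and 98.99% of its stretches were unique. At 2 h it held 8.64%, the lowest of all tested members, against 31.5% for Hist1h4d. Its slope was −1.05 ± 0.154 (adjusted p = 0.0230, edgeR).

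Hist4h4, the lone member on chromosome 6 (chr6:136801553-136804415), had 666, 80.4, 24.5 and 18.1 CPM and a slope of −0.87 (adjusted p = 0.0246, edgeR). Hist1h4j had 261, 29.8, 7.11 and 2.78 CPM, and its slope of −1.11 ± 0.098 (adjusted p = 0.0145, edgeR) was among the steepest. Hist1h4n, at −1.19, rests on 158, 27, 9 and 2 reads. Its level at 6 h was 3.15% with a wide counting interval of 0.378 to 11.6.

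At the slow end, Hist1h4a had 209, 77.8, 29.9 and 19.6 CPM and kept 9.38% at 6 h (8.21 to 10.7), with a slope of −0.58 (adjusted p = 0.0145, edgeR). Hist1h4i at chr13:22040636-22041362 had 105, 27.3, 17.3 and 15.7 CPM. It was nearly flat from 4 to 6 h and kept 14.9% (12.8 to 17.2), the highest share of any member that fell (slope −0.45 ± 0.091, adjusted p = 0.0364, edgeR). Leaving out the 4 h library ended the calls of Hist1h4i, Hist1h4n, Hist1h2bc, Hist2h2ab and Hist1h2an, while the other 43 stayed called, where 3.68% of all genes then fell. Hist1h2an is named only because it is in this group.

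**Figure D3:**
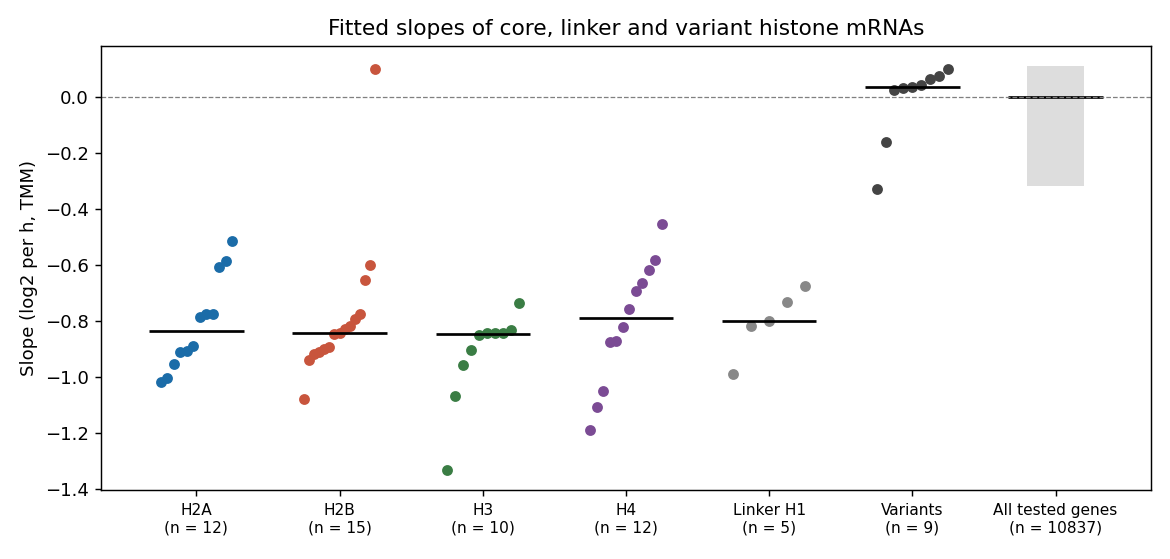
Fitted slope (vertical, log2 per h) of each tested H2A, H2B, H3, H4, linker H1 and variant histone gene, with a bar at each group's median. The grey box spans the 5th to the 95th percentile of all 10837 tested genes, −0.32 to 0.11. The core medians lie between −0.85 and −0.79, and Hist2h2be, at 0.10, is the highest H2B point.

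Genes with the same stem-loop letters differed in slope. Hist2h4 and Hist1h4i carry the same 16 letters, GGCCCUUUUUAGGGCC, and had slopes of −1.05 and −0.45. The median slope was −0.90 over the 16 tested genes with GGCUCUUUUCAGAGCC and −0.79 over the 6 tested H4 genes with GGCCCUUUUCAGGGCC. The loop letter C at its second base occurs only in Hist1h3g and Hist1h4a, whose slopes were −1.07 and −0.58. All 34 tested genes with a stem-loop match fell, as did 14 of the 15 without one, most of which have short gene models. These are descriptions of the annotated transcripts, and which 3′ ends the cells used was not measured.

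Slopes were alike in genes with little and with much unique sequence. The median slope was −0.85 over the 8 tested genes under 20% unique and −0.84 over the 41 others, of which 40 fell.

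The loss slowed over time. A quadratic time term was called upward, meaning that the curve flattened, in 46 of the 49 members (11 of 12 H2A, 14 of 15 H2B, 10 of 10 H3 and 11 of 12 H4 genes), where 19% of all tested genes were called so. It was called downward in 0 members. The exceptions were Hist1h2ah, Hist1h4n and Hist2h2be (adjusted p = 0.135, 0.0906 and 0.754, edgeR). This test has 1 residual degree of freedom, and with total-count scaling the number was 33. The median step was −2.54 log2 units from 0 to 2 h, −1.68 from 2 to 4 h and −0.67 from 4 to 6 h. The steps shrank in that order in 47 of 49 members. That count was not made over all tested genes, so it cannot be read as particular to the family.

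Expressed as an apparent half-life, the time in which the level would halve at the pace of one step, the family sum gave 51.4 min from 0 to 2 h (51.1 to 51.6), 81.0 min from 2 to 4 h (80.2 to 81.8) and 155 min from 4 to 6 h (147 to 163). These values use TMM scaling. With the deposited divisors the family sum gave 45.8, 72.1 and 145 min, outside these intervals, which cover counting error only. In the first step under TMM the 4 classes lay close together, at 48.7 min for H2A, 53.1 for H2B, 47.0 for H3 and 53.7 for H4. In the last step H2A was longest, at 221 min (186 to 272), beside 148 min for H2B, 135 for H3 and 153 for H4. The intervals of H2A and the other classes do not overlap there, which speaks to counting error alone. Without Hist2h2be the family's last step gave 152 min.

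**Figure D4:**
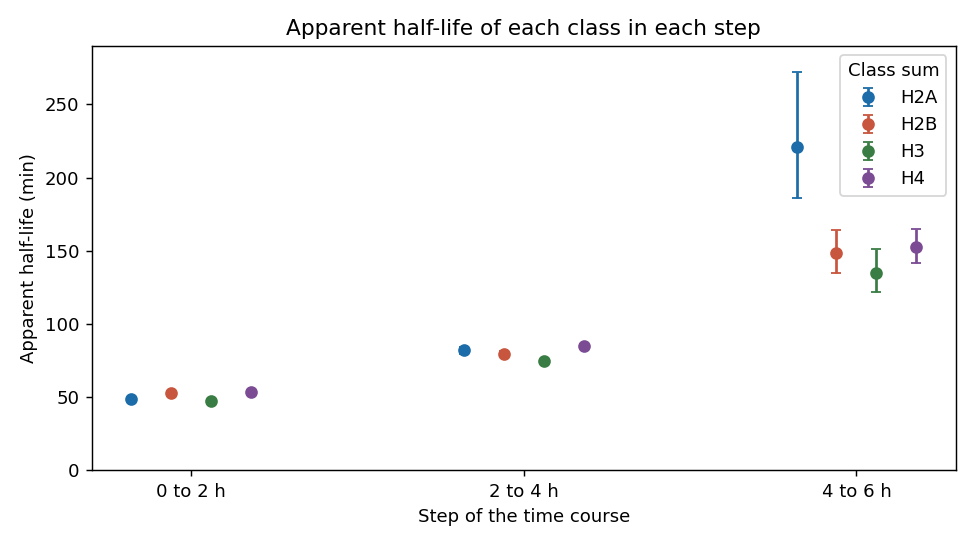
Apparent half-life (vertical, min, TMM scaling) of the summed H2A, H2B, H3 and H4 counts in each step of the course (horizontal). Bars are exact binomial 95% counting intervals. All classes lie between 47.0 and 53.7 min in the first step and between 135 and 221 min in the last.

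The make-up of the remaining reads shifted between classes. H3 genes gave 22.3%, 19.2%, 17.6% and 16.3% (15.3 to 17.3 at the last time) of core histone reads along the course. H4 genes gave 39.9%, 42.8%, 44.7% and 44.4% (43.1 to 45.7). H2A gave 13.8%, 12.6%, 12.8% and 15.01% (14.1 to 15.96), so its share was above the untreated one only at 6 h, on 856 reads. H2B gave 24.0%, 25.4%, 24.9% and 24.3% (23.2 to 25.5). These shares do not depend on library scaling. The lower H3 share remained when the gene with the most reads in each class was left out, at 23.48% untreated and 17.35% at 6 h, but the H2B share then went down, from 23.16% to 21.67%.

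**Figure D5:**
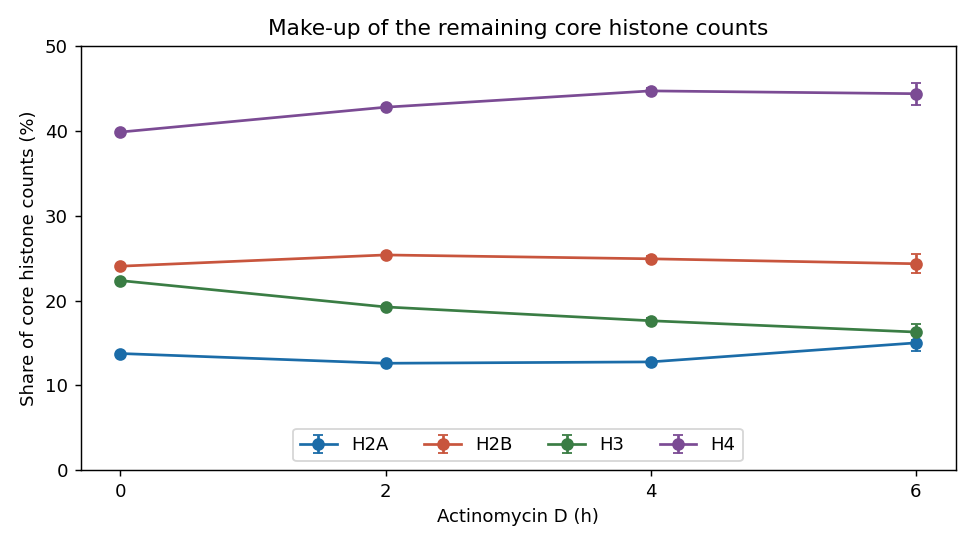
Share of all core histone counts in each class (vertical, %) at each time in actinomycin D (horizontal, h), with exact binomial 95% intervals that cover counting error only. The H3 share goes from 22.3% to 16.3% and the H4 share from 39.9% to 44.4%.

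The authors' deposited table gives a half-life per gene, and its values were recovered exactly (within a relative tolerance of 1e-06) for all 14957 genes by a log-linear fit through the untreated value over 0, 2 and 4 h. With the 6 h point added, 0 of them were recovered, so that point does not enter the deposited half-lives. In the authors' deposited table the median half-life of the 49 tested core histones was 0.842 h, beside 4.72 h over all 14957 genes. The latter set also holds genes below the filter and half-lives below 0, so these medians are of unlike sets. Hist2h4 had the shortest in the authors' deposited table, 0.622 h, and Hist1h4a the longest of those that fell, 1.21 h. Hist2h2be stands in the authors' deposited table at 213 h. Among tested genes, 74 had a half-life between 0 and 60 min in the authors' deposited table, of which 40 were core histones and 5 linker histones.

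Refitting the same normalized values with the 6 h point gave a median of 0.969 h for the core histones, longer than over 0, 2 and 4 h in 48 of 49. The exception was Hist2h2be, whose refitted value was below 0, meaning that no loss was seen. How many of all genes had a longer refitted half-life was not counted, so the lengthening cannot be read as particular to core histones. The half-life of a core histone mRNA in this course thus depended on the window over which it was fitted.

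Linker and variant histones give the nearest comparison. The 5 linker H1 genes, which bind DNA between nucleosomes and have the same kind of 3′ end, all fell, with slopes between −0.99 (Hist1h1d) and −0.67 (Hist1h1c) and a median of −0.80. Their summed level was 18.6%, 6.32% and 4.01% of untreated at 2, 4 and 6 h, beside 19.8%, 7.09% and 4.14% for the core genes. Of 11 variant histones, which are also made outside S phase and mostly from polyadenylated mRNAs, 9 were tested, 2 fell and 3 rose. Among all tested genes 17.2% fell and 8.63% rose, so the variants' share of falls was near that of all genes. H3f3a (slope 0.10), Cenpa (0.08) and H2afy (0.06) rose relative to all genes under TMM, but were not called under total-count scaling, and Cenpa and H2afy turned to −0.01 and −0.02 under the deposited divisors. H2afz, an H2A variant, stood at 114.6% of untreated at 6 h (111 to 118) with no call (slope 0.03, adjusted p = 0.186, edgeR).

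H2afx, whose mRNA is known to end either at the stem-loop or at a poly(A) site, lay between the sets. Its levels were 42.0%, 28.9% and 25.4% of untreated, with a slope of −0.33 (adjusted p = 0.0285, edgeR; 0.0538 without the 4 h library). Its stem-loop, shown above, is followed by 822 bases in the annotated transcript. H1f0, a linker variant of non-dividing cells, fell more slowly, by 0.16 log2 units per h (adjusted p = 0.0228, edgeR). It kept 52.9% at 6 h.

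The mRNAs of factors that make, degrade or carry histone products had mostly shallower slopes. Of 51 tested, 13 fell and 2 rose, or 7 and 0 of 16 processing factors, 4 and 1 of 19 decay factors, and 2 and 1 of 16 chaperones and carriers, with a median slope of 0.018. Over all tested genes 17.2% fell and 8.63% rose. The largest falls were those of Npat (−0.39), which drives histone gene transcription, Daxx (−0.38) and Chaf1a (−0.30), chaperones of H3 and H4, and Wdr33 (−0.31), a polyadenylation factor. Slbp itself fell by 0.14 log2 units per h and kept 55.3% at 6 h (49.7 to 61.4; adjusted p = 0.0305, edgeR). Eri1 fell by 0.11 (adjusted p = 0.0220, edgeR).

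Upf1, a helicase used in histone mRNA decay, had a slope of 0.02 (adjusted p = 0.363, edgeR) and Lsm1, part of the ring that binds the uridylated end, −0.01 (adjusted p = 0.570, edgeR). The 2 that rose were Dcp2, a decapping enzyme (0.08), and Ipo4, which carries histones into the nucleus (0.06), and both turned to −0.01 and −0.02 under the deposited divisors. These calls rest on the 4 h library and on the scaling: without that library 2 of the 13 falls remained, Wdr33 and Chaf1a, where the share of all genes that fell went from 17.2% to 3.68%, and the count ran from 8 with total counts to 36 with the deposited divisors.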

How the data were processed

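Cytoplasmic RNA of RAW264.7 cells was depleted of ribosomal RNA and sequenced from directional libraries, per the labels' protocols, with 1 library at each of 0, 2, 4 and 6 h. The submitters' processing notes name STAR 2.5.3a, featureCounts, Subread 1.6.3 and the mm10 build. The sources used here do not give the annotation release, the strand setting or the handling of multiply mapping reads. The deposited raw counts per gene, whole numbers per the file headers, were used as they stand. The deposited normalized signal equals the counts divided by 1300, 2250, 4476 and 748 at 0, 2, 4 and 6 h, and the half-life and R2 columns were taken as the authors' score. Columns not matched to a sample numbered 0.

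Slopes over time (log2 per h) and quadratic terms were tested with edgeR 4.0.16 (R 4.3.3), at an adjusted p threshold of 0.05 (Benjamini-Hochberg). Genes tested had a mean CPM of at least 1, taken on total counts before TMM scaling. Sums and shares have exact binomial (Clopper-Pearson) 95% intervals from scipy 1.17.1. On simulated counts for the slope comparison with a dispersion of 0.02, 200 of 200 genes with a slope of −0.5 among 10837 were recovered, with 16 false calls. For the quadratic term 92 of 200 were recovered.

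Other scalings, filters, DESeq2 1.42.0 and each library left out were tried, and settings for the factor, linker and variant lists, the ribosomal protein scaling of the bend and the sum without Hist2h2be were chosen after seeing the data. Members and lists were chosen with earlier results of these data known. Named members are, per class, the 3 of highest untreated CPM, the 2 steepest and the 2 shallowest, with uncalled members, Hist2h2be and Hist4h4. Named factors are the 4 steepest falls, the 2 rises, Slbp, Eri1, Upf1 and Lsm1. Transcripts came from GENCODE M21 and promoters from RefSeq (GRCm38.p6).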

Additional observations from a re-analysis of the deposited data

How the results depend on the processing

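No paired analysis was possible because each time has 1 library and no replicate numbers are shared. The count of core histones that fell was 48 under all 4 other scalings, without a filter and with DESeq2's Wald test, 45 of the genes with a mean CPM of at least 5, and 43 to 48 when each library was left out. Without the 4 h library the slopes that lost their call were Hist1h2bc −0.563, Hist1h4i −0.432, Hist1h4n −0.918 and Hist2h2ab −0.479 (adjusted p = 0.0679, 0.0680, 0.0586 and 0.0653, edgeR), and Hist1h2an. No named slope reversed. The median slope of −0.84 ran from −0.8156 (total counts) to −0.9290 (deposited divisors), with the median of all genes moving from 0.0224 to −0.0856. It was −0.6486 without the 0 h library and −1.0214 without the 6 h library. The upward bend was called in 33 members with total counts and in 45 or 46 under the other settings.

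The summed level at 2 h was 19.61% with DESeq2's size factors, 26.25% with total counts, 16.78% with ribosomal protein scaling, 16.27% with the deposited divisors and 18.75% without Hist1h4d. At 4 h it was 8.974%, 5.631%, 5.136% and 6.437% under the last 4 of these, and 7.016% without Hist2h2be. At 6 h it was 4.65%, 3.246%, 2.891% and 3.829%. Class shares without the gene with the most reads in each class were 11.87% untreated and 16% at 6 h for H2A, 23.16% and 21.67% for H2B, 23.48% and 17.35% for H3, and 41.49% untreated for H4. Histone factors that fell numbered 8 with total counts, 21 with ribosomal protein scaling, 36 with the deposited divisors, and 2 to 16 when each library was left out. For linker and variant genes the count was 6 to 9 throughout. Among all tested genes the share that fell was 12.5% with total counts, 24% with ribosomal protein scaling and 46.5% with the deposited divisors, so that background moves with the scaling while the core histone count stayed at 48. The causes of these shifts were not tested. Depth limits the 6 h values of members with few reads there, such as Hist1h2ah and Hist1h4n.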
